A study of Mus musculus with 4 samples.

Results

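The lysosomal genes described here are 46 genes for cathepsins and other acid proteases, glycosidases, sulfatases, lipid-handling proteins, membrane proteins, proton pump subunits and the transcription factor Tfeb. They were chosen by gene name, with earlier results of these data known. All 46 were found among the 52535 models of the deposited tables. RNA sequencing was done on mouse pancreatic cells labelled as ductal, all on the C57BL/6 strain. There were 2 libraries from wild-type mice (WT 1 and WT 2) and 2 from mice of the genotype Lats1fl/fl, Lats2fl/fl, Sox9-CreER (KO 1 and KO 2). Lats1 and Lats2 are Hippo pathway kinases that keep YAP and TAZ out of the nucleus, and Sox9-CreER is a tamoxifen-activated Cre driven in cells that express Sox9, which in the adult pancreas are mainly duct cells. The sources used here state no age or sex, no tamoxifen schedule, no way of isolating the cells, and not whether wild-type mice carried Cre or received tamoxifen.

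Lysosomes are acidic organelles that break down proteins, glycans and lipids delivered by endocytosis, phagocytosis and autophagy. Their soluble hydrolases are tagged with mannose phosphate in the Golgi and sorted to the organelle, a membrane proton pump keeps the lumen acid, and heavily glycosylated membrane proteins line it. Transcription factors of the MiT/TFE family, Tfeb among them, bind E-box elements in many lysosomal gene promoters. Macrophages are rich in lysosomes, and pancreatic acinar and duct cells also depend on them.

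Libraries held between 3566387 and 5925601 counts. Neither Lats1 nor Lats2 was lower in the libraries labelled knockout (edgeR adjusted p = 0.172 and 0.127), but the counts cover whole gene models and so do not check the deletion. The duct genes Krt19, Sox9 and Epcam were present in every library, and 8 of 10 duct markers rose. RNA of other cell types was present too. The 11 acinar markers summed to 51110 and 91959 CPM (counts scaled to effective library size) in wild type, against 159.6 (KO 1) and 3644 CPM (KO 2), although only 2 of them passed the test. All 10 T and NK cell markers and all 7 B cell markers fell, and 17 of 19 macrophage markers and 7 of 9 fibroblast markers rose. Of the endothelial markers 5 of 6 fell, and of the islet markers 3 of 6, with none of either list rising. The female transcript Xist had 362 counts in WT 1, 0 in WT 2, 852 in KO 1 and 838 in KO 2. Cells of female mice were thus in all libraries but WT 2. The wild-type pair came from different mice, and sex was not balanced between the groups. In such bulk samples fewer cells of a type and less RNA per cell cannot be told apart.

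Lysosomal genes were mostly higher in the libraries labelled knockout. Of the 46 members, all of which passed the filter on low counts, 35 rose (76.1%), 3 fell and 8 did not pass (edgeR's quasi-likelihood test, Benjamini-Hochberg adjusted p under 0.05 over all genes). Among all 13990 genes tested, 22% rose and 20.2% fell. The members' median log2 change was 1.21, against -0.01 over all genes, and single members lay between -1.03 and 3.19. For 28 members the rise was more than 2-fold, as for 14% of all genes. In 36 members both knockout-labelled libraries lay above both wild-type libraries, which held for 37.4% of all genes, and in 4 both lay below, against 36.8%. With 1 library left out, 28 to 35 members rose and 0 to 2 fell (2 without KO 1, 1 without WT 1 or without WT 2, 0 without KO 2). Together the members took 0.484% and 0.396% of all counts in WT 1 and WT 2 and 1.57% and 1.39% in KO 1 and KO 2. By role, the median log2 change was 2.02 for the other proteases, 1.63 for cysteine cathepsins, 1.56 for membrane proteins, 1.04 for glycosidases, 1.03 for lipid-handling genes, 0.80 for proton pump subunits and -0.13 for sulfatases. Differences between roles were not tested.

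**Figure D1:**
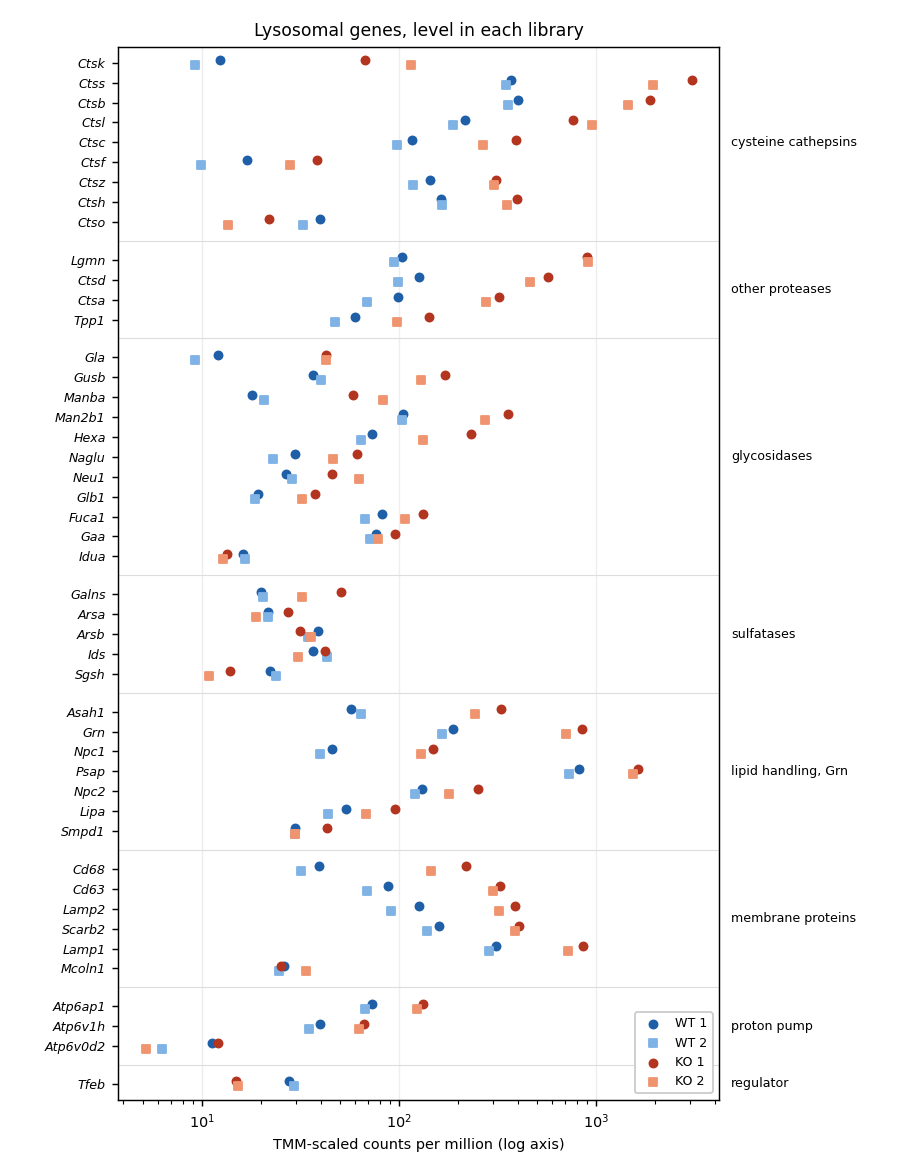
Level of each of the 46 lysosomal genes in each library, as TMM-scaled CPM on a log axis, grouped by role; blue symbols are the 2 wild-type libraries and red and orange symbols the 2 libraries labelled knockout. For 36 genes both knockout-labelled libraries stand to the right of both wild-type libraries, and for 4 (Ctso, Idua, Sgsh and Tfeb) they stand to the left.

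The promoters are shown because Tfeb, the regulator in the list, binds E-box elements. In these bulk samples of mixed cell types the Tfeb level went down while most members went up. RefSeq promoter windows (GRCm38.p6, 250 bases before to 50 after a transcript start) were found for 39 of the 46 members. Both strands were searched for the E-box CACGTG and, within it, for TCACGTG, the same box with a T before it (or, on the other strand, an A after it). TCACGTG was present in the windows of 11 of these 39 members (28.2%), against 6.88% of tested genes with a window. CACGTG, with or without the flanking base, was present in 13 members (33.3%) against 11.5%. The palindrome TCACGTGA was found in 4 members (10.3%), against 2.13% of tested genes with a window. Of 93 other lysosomal pathway genes with a window, 20.4% had TCACGTG and 10.8% had TCACGTGA. The longer CLEAR element named for TFEB targets was in 0 of 39 windows, against 0.743% of tested genes, which says only that its letters are not there. Lamp1 and Gla are printed first because each holds several boxes upstream of the deposited gene model, Lamp1 with 250 bases and Gla with 130 bases before the model's first base. Sequences run 5′ to 3′ on the gene's strand, with the E-box and any flanking T or A in capitals.
Lamp1, chr8:13158911-13159160, plus strand: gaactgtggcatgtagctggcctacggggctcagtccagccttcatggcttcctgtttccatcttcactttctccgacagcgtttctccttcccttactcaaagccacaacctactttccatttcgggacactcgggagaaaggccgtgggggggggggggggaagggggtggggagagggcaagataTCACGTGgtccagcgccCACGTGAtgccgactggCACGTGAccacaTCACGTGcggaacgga
Gla, chrX:134601126-134601255, minus strand: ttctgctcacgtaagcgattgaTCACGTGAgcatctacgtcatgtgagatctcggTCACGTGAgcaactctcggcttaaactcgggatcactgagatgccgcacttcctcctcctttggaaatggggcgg

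The other members with an extended box are shown as stretches of at most 30 bases around it, to set genes that rose (the first 5) beside genes that did not (the last 4). Ctsa, Ctsd and Mcoln1 have 2 boxes each and the one shown lies upstream of the start and nearest to it. The RefSeq starts of these windows lie inside the deposited gene models, furthest inside for Ctsa and Lgmn, whose other window at an outer start holds no TCACGTG.
Lgmn, chr12:102439125-102439153, minus strand: tggaatgtctgTCACGTGgtccattttat
Ctsa, chr2:164833749-164833778, plus strand: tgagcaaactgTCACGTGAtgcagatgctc
Ctsd, chr7:142387908-142387937, minus strand: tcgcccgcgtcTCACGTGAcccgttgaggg
Naglu, chr11:101070009-101070037, plus strand: caaccttcaggTCACGTGgcccgaggtcg
Glb1, chr9:114401018-114401046, plus strand: ctgcttctgagTCACGTGgcctacagagg
Mcoln1, chr8:3500462-3500491, plus strand: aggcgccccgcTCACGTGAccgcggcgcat
Gaa, chr11:119267811-119267839, plus strand: tttctgtgcgaTCACGTGtttgactctga
Arsa, chr15:89477424-89477452, minus strand: tcaactcagtgTCACGTGttgtctgctcc
Sgsh, chr11:119355522-119355550, minus strand: ggcctgccgtgCACGTGAccgtggggagc

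Members rose with the extended box and without it. Of the 11 with TCACGTG, 7 rose (Lgmn, Ctsd, Ctsa, Gla, Naglu, Glb1 and Lamp1), 1 fell (Sgsh) and 3 did not pass (Gaa, Arsa and Mcoln1), with a median log2 change of 1.04. Of the 28 without it, 22 rose, 2 fell and 4 did not pass, with a median of 1.27, and the difference was not tested. Of the 18 extended boxes, 13 began within 100 bases upstream of the start. Where such boxes lie in other promoters was not examined. Lamp1 carried 4 in a row and rose, whereas Mcoln1 carried 2 and overlapped between the groups. Ctsk and Ctss, which had the largest rises among the cathepsins, had no CACGTG in their windows. These counts describe letters, not binding.

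**Figure D2:**
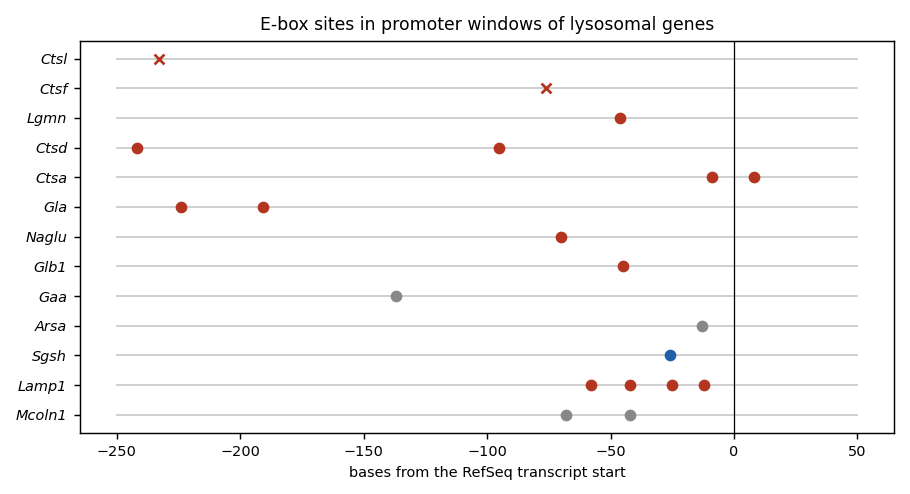
Position of E-box sites in the RefSeq promoter windows of the 13 members that have one, in bases from the transcript start; filled circles are boxes with the flanking T or A, crosses are plain boxes, and red, blue and grey mark genes that rose, fell or did not pass. Most circles lie within 100 bases upstream of the start, and they include red, blue and grey genes.

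Cysteine cathepsins, the papain-like proteases of the lysosome, rose in 8 of 9 cases, each more than 2-fold, and Ctso fell. Ctsk (mm10, chromosome 3, 95499256 to 95509362), a collagen-degrading cathepsin best known from osteoclasts, stood at 12.4 (WT 1) and 9.21 CPM (WT 2) against 67.2 (KO 1) and 116 CPM (KO 2). Both knockout-labelled libraries were far above wild type, with KO 2 the higher, and the rise was 8.52-fold (log2 change 3.09 ± 0.32 SE, edgeR adjusted p = 0.000219). Its neighbour Ctss (chromosome 3, 95526786 to 95556403) encodes the cathepsin that trims the invariant chain of MHC class II in antigen-presenting cells. Ctss was at 372 and 348 CPM in wild type, against 3058 (KO 1) and 1943 CPM (KO 2). It rose 6.95-fold, with KO 1 the higher of the pair (log2 change 2.80 ± 0.26 SE, edgeR adjusted p = 9.5e-05).

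The broadly expressed endopeptidases Ctsb and Ctsl rose by similar amounts. Ctsb went from 379 ± 33.1 to 1666 ± 294 CPM (SD, n = 2), 4.39-fold, and Ctsl from 203 ± 20.3 to 861 ± 137 CPM, 4.25-fold. Ctsc, the dipeptidyl peptidase that activates granule serine proteases of leukocytes, rose 3.09-fold. Ctsf rose 2.48-fold, the carboxypeptidase Ctsz 2.34-fold and the aminopeptidase Ctsh 2.28-fold. The Ctsf call needed WT 2 and KO 1, since edgeR gave an adjusted p of 0.0521 and 0.0855 in their absence.

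Ctso was the only cysteine cathepsin of the list that fell. It was measured at 39.6 (WT 1) and 32.6 CPM (WT 2) against 21.9 (KO 1) and 13.6 CPM (KO 2), so the groups did not overlap. The fall was 2.04-fold (log2 change -1.03 ± 0.28 SE, edgeR adjusted p = 0.0175). The call was lost without WT 1 (log2 change -0.87, edgeR adjusted p = 0.0802) and likewise in the absence of KO 2 (log2 change -0.68, edgeR adjusted p = 0.0999).

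The other proteases all rose, 4 of 4. Lgmn (chromosome 12, 102394084 to 102439813), the asparaginyl endopeptidase legumain that processes cathepsins and antigens, had the largest rise of the 46 genes. It stood at 104 (WT 1) and 93.9 CPM (WT 2) against 897 (KO 1) and 909 CPM (KO 2). The libraries of each group were close to each other, and the rise was 9.13-fold (log2 change 3.19 ± 0.17 SE, edgeR adjusted p = 1.39e-05). The aspartic protease Ctsd rose 4.58-fold, from 113 ± 20.2 to 516 ± 77.5 CPM, the carboxypeptidase Ctsa, which also protects neuraminidase and galactosidase, 3.57-fold, and the tripeptidyl peptidase Tpp1 2.24-fold. In the annotation 34.4% of the Ctsd exon bases are shared with Gm49369, a model on the same strand that was not tested under that name.

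**Figure D3:**
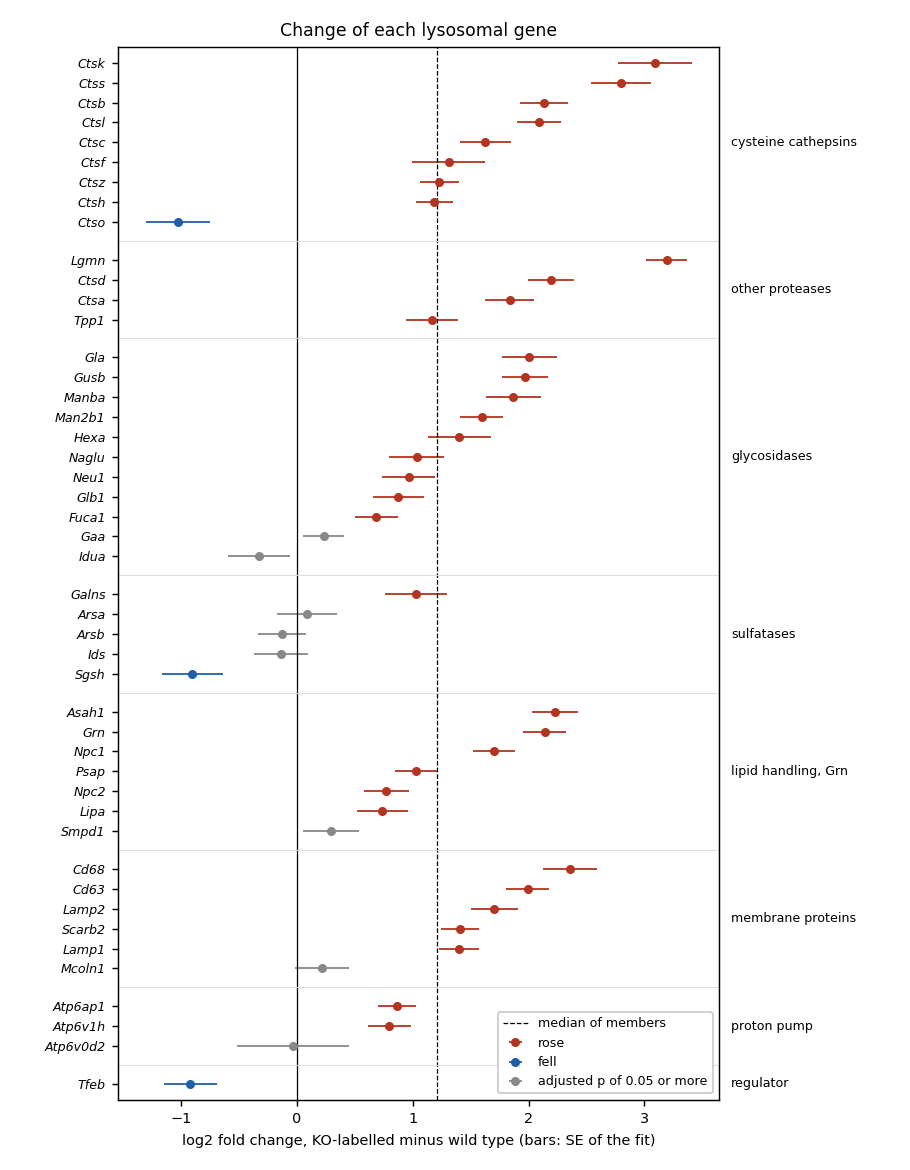
Log2 fold change of each lysosomal gene, libraries labelled knockout minus wild type, with the SE of the edgeR fit as bars; the dashed line is the members' median of 1.21. Red points rose and blue points fell; the 8 grey points did not pass.

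Glycosidases, which strip sugars from glycoproteins, glycolipids and glycosaminoglycans, rose in 9 of 11 cases, with 2 that did not pass. Gla (chromosome X, 134588149 to 134601125), alpha-galactosidase A, was at 12.1 and 9.21 CPM in wild type, against 42.9 (KO 1) and 42.6 CPM (KO 2). The groups were well apart, and the rise was 4.02-fold (log2 change 2.01 ± 0.24 SE, edgeR adjusted p = 0.000334). Beta-glucuronidase (Gusb) rose 3.91-fold, beta-mannosidase (Manba) 3.65-fold, alpha-mannosidase (Man2b1) 3.02-fold and the alpha subunit of beta-hexosaminidase (Hexa) 2.65-fold. Naglu, which acts on heparan sulfate, rose 2.05-fold, the sialidase Neu1 1.95-fold, beta-galactosidase (Glb1) 1.84-fold and alpha-fucosidase (Fuca1) 1.61-fold. Without KO 1, the calls of Naglu, Glb1 and Fuca1 were lost (edgeR adjusted p = 0.0536, 0.075 and 0.0942). Without WT 2, those of Glb1 and Fuca1 were (edgeR adjusted p = 0.057 and 0.119).

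Gaa and Idua did not pass. Gaa, the acid glucosidase that degrades glycogen, was at 76.4 and 71.0 CPM in wild type, against 95.4 (KO 1) and 78.0 CPM (KO 2) (log2 difference 0.23 ± 0.18 SE, edgeR adjusted p = 0.322). The KO 2 value lay only just above the wild-type values. Idua, which removes iduronic acid from dermatan and heparan sulfate, was at 16.2 and 16.6 CPM in wild type, against 13.5 (KO 1) and 12.8 CPM (KO 2) (-0.32 ± 0.27 SE, edgeR adjusted p = 0.359). Both knockout-labelled values lay below wild type, by less than the fit could call. The Idua exons overlap those of Dgkq and Slc26a1 on the opposite strand by 2.95% and 3.35%.

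Sulfatases remove sulfate groups from glycosaminoglycans and sulfatide. Of the 5 listed, 1 rose, 1 fell and 3 did not pass, with a median log2 change of -0.13. Their shares that rose and fell (20% each) were near those of all genes tested (22% and 20.2%). Galns, which acts on keratan and chondroitin sulfate, was at 20.1 and 20.5 CPM in wild type, against 50.9 (KO 1) and 32.1 CPM (KO 2). It rose 2.04-fold (log2 change 1.03 ± 0.27 SE, edgeR adjusted p = 0.0144), with KO 1 well above KO 2, and without KO 1 it did not pass (1.59-fold, edgeR adjusted p = 0.107). Sgsh (chromosome 11, 119343425 to 119355536), the heparan sulfamidase, was at 22.3 and 23.8 CPM in wild type, against 13.9 (KO 1) and 10.8 CPM (KO 2).

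Sgsh fell 1.87-fold, with groups that did not overlap (log2 change -0.90 ± 0.26 SE, edgeR adjusted p = 0.0243). The call was lost when WT 1, WT 2 or KO 2 was left out (edgeR adjusted p = 0.0643, 0.103 and 0.142) and with DESeq2 (adjusted p = 0.0536). Of its exon bases 21.6% overlap exons of Card14 on the opposite strand, whose mean level was 4.10 CPM in the wild-type libraries and 0.768 CPM in the others. The part of Card14 reads in the Sgsh counts was not tested.

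The remaining sulfatases overlapped between the groups. The iduronate sulfatase Ids was at 36.6 and 43.2 CPM in wild type, against 42.1 (KO 1) and 30.6 CPM (KO 2) (edgeR adjusted p = 0.664). Arsa, which degrades sulfatide, was at 21.7 and 21.6 CPM and at 27.4 and 18.8 CPM (edgeR adjusted p = 0.813). Arsb, which acts on dermatan sulfate, was at 39.0 and 34.4 CPM and at 31.4 and 35.8 CPM (edgeR adjusted p = 0.656). In Arsa 1 knockout-labelled library lay above and 1 below the wild-type pair, and no difference was detectable in these genes with 2 libraries per group.

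Lipid-handling genes rose in 6 of 7 cases. Asah1 (chromosome 8, 41340197 to 41374773), the acid ceramidase, was at 57.4 and 64.1 CPM in wild type, against 328 (KO 1) and 242 CPM (KO 2). It rose 4.69-fold, without overlap (log2 change 2.23 ± 0.20 SE, edgeR adjusted p = 7.77e-05). Progranulin (Grn), a secreted and lysosomal protein cut into granulins, rose 4.40-fold, from 177 ± 15.5 to 779 ± 101 CPM. The cholesterol carriers Npc1 and Npc2, which act in sequence, rose 3.25-fold and 1.71-fold. Prosaposin (Psap), the precursor of the saposin activators, rose 2.04-fold, from 777 ± 63.1 to 1588 ± 72.2 CPM, and the acid lipase Lipa 1.67-fold.

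Smpd1, the acid sphingomyelinase, did not pass. It was at 29.7 and 29.7 CPM in wild type, against 43.3 (KO 1) and 29.6 CPM (KO 2) (log2 difference 0.29 ± 0.24 SE, edgeR adjusted p = 0.357). KO 2 was at the wild-type level and KO 1 above it. Among the lipid genes that rose, leaving out WT 2 cost Psap, Npc2 and Lipa their calls (edgeR adjusted p = 0.0693, 0.0697 and 0.134). Leaving out KO 1 did so for Npc2 and Lipa (edgeR adjusted p = 0.0623 and 0.166).

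Membrane proteins of the lysosome rose in 5 of 6 cases. Cd68 (chromosome 11, 69664213 to 69666153), the glycoprotein macrosialin of macrophage lysosomes, was at 39.3 and 31.7 CPM in wild type, against 218 (KO 1) and 146 CPM (KO 2). It rose 5.12-fold, more than the other 5 membrane proteins of the list (log2 change 2.36 ± 0.24 SE, edgeR adjusted p = 0.00014). The tetraspanin Cd63 rose 3.98-fold, from 78.7 ± 13.8 to 313 ± 20.5 CPM. The abundant lining proteins Lamp2 and Lamp1 rose 3.26-fold and 2.64-fold, and Scarb2, the receptor that carries beta-glucocerebrosidase to the lysosome, 2.65-fold. Mcoln1, the calcium channel mucolipin, was at 26.1 and 24.5 CPM in wild type, against 25.2 (KO 1) and 33.7 CPM (KO 2). Its groups overlapped (log2 difference 0.22 ± 0.23 SE, edgeR adjusted p = 0.478).

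Among the proton pump members, 2 of 3 rose, each less than 2-fold. Atp6ap1, an accessory subunit, was at 73.4 and 67.0 CPM in wild type, against 132 (KO 1) and 124 CPM (KO 2). It rose 1.82-fold with groups well apart (log2 change 0.86 ± 0.16 SE, edgeR adjusted p = 0.00335). Atp6v1h, a subunit of the cytosolic sector, rose 1.74-fold, a call that was lost without WT 2 (edgeR adjusted p = 0.0599). Atp6v0d2, the form of the d subunit known from osteoclasts and macrophages, was low in every library, at 11.3 and 6.29 CPM in wild type, against 12.1 (KO 1) and 5.18 CPM (KO 2). These pairs overlapped (log2 difference -0.03 ± 0.48 SE, edgeR adjusted p = 0.969), and the difference was -0.75 without KO 1 (edgeR adjusted p = 0.368).

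Among the members, Gla, Ids, Lamp2 and Atp6ap1 lie on the X chromosome, and WT 2 was the only library without Xist counts. Gla, Lamp2 (127 and 91.5 CPM) and Atp6ap1 were higher in WT 1 than in WT 2, and Ids was lower. The 46 members together also summed higher in WT 1 (4742 CPM) than in WT 2 (4216 CPM). That order was thus not particular to the X-linked members, and a link to sex was not tested.

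Tfeb (chromosome 17, 47737030 to 47792419), the transcription factor that activates lysosomal genes when mTORC1 is inactive, was lower. It was at 27.8 (WT 1) and 29.2 CPM (WT 2) against 14.9 (KO 1) and 15.2 CPM (KO 2). The libraries of each group nearly coincided, and the fall was 1.89-fold (log2 change -0.92 ± 0.23 SE, edgeR adjusted p = 0.0122). Leaving out a library kept its size at -0.88 to -0.90 in the 3 cases where the call was lost (edgeR adjusted p = 0.0649 without WT 2, 0.0556 without KO 1 and 0.055 without KO 2). Tfeb protein activity depends on its phosphorylation and location, which these counts do not measure. The 10 T and NK cell markers and the 7 B cell markers also fell in the libraries labelled knockout. The part of such changes in cell types in the fall of Tfeb was not tested.

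The relatives of Tfeb in the MiT/TFE family went the other way. Mitf was at 4.40 and 5.84 CPM in wild type, against 16.7 (KO 1) and 20.1 CPM (KO 2), a 3.56-fold rise (edgeR adjusted p = 0.00258). Tfe3 rose 1.74-fold, from 42.3 and 49.9 CPM to 86.3 and 74.8 CPM (edgeR adjusted p = 0.00901), a call lost without WT 1 (edgeR adjusted p = 0.0518). Tfec, a family member of myeloid cells, had only 3 and 2 counts in wild type (0.824 and 0.450 CPM) and stood at 5.23 and 2.75 CPM in KO 1 and KO 2. It rose 6.13-fold (edgeR adjusted p = 0.017) but the call was lost with DESeq2 (adjusted p = 0.0504) and when any library but WT 1 was left out (edgeR adjusted p = 0.099 without WT 2, 0.22 without KO 1 and 0.0503 without KO 2). Among the 15 listed genes of this family and of its mTORC1 control, a list that leaves out Tfeb, 7 rose and 0 fell. Fnip2, which with folliculin controls the Rag GTPases, rose 7.56-fold, from 15.9 ± 2.29 to 121 ± 14.6 CPM.

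Other genes of the lysosomal pathway also rose more often than they fell. Of 121 listed, 113 were tested, 54 rose (47.8%) and 9 fell (7.96%), with a median log2 change of 0.54. Over all genes tested 22% rose and 20.2% fell. Whether the share of these pathway genes that rose differs from that of the members was not tested. Among 28 other hydrolases and luminal proteins 16 rose and 2 fell. Lysozyme (Lyz2), a product of macrophages, rose 5.49-fold, from 292 ± 0.352 to 1606 ± 399 CPM, and Gpnmb 5.38-fold. Gpnmb, a glycoprotein of macrophages and melanocytes, lost its call without KO 1 and without KO 2 (edgeR adjusted p = 0.21 and 0.171) and its log2 change was 3.29 instead of 2.43 without WT 1. Ctsw, a cathepsin of cytotoxic lymphocytes, fell 6.30-fold, and heparanase (Hpse) 4.33-fold.

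Among 23 tested other membrane proteins 9 rose and 3 fell. Slc15a3, a lysosomal peptide transporter of myeloid cells, rose 10.9-fold, from 12.2 ± 4.39 to 135 ± 16.3 CPM, and the endolysosomal cation channel Tpcn2 3.60-fold. The peptide transporter Abcb9 fell 5.35-fold. Mcoln3, a relative of Mcoln1, had 21 counts in wild type and 1 in the libraries labelled knockout, a pooled ratio of 28.9 (95% exact binomial interval 4.65 to 1200.0, counting error only). Its call was lost without KO 1 (log2 change -3.81, edgeR adjusted p = 0.0899) and without KO 2 (-6.52, edgeR adjusted p = 0.0507).

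Of 17 tested other proton pump subunits, 9 rose and 1 fell. Tcirg1, the a subunit form of osteoclasts and macrophages, rose 2.83-fold and the catalytic subunit Atp6v1a 2.36-fold. Atp6v0d1, the widely expressed form of the d subunit, was at 65.7 and 78.9 CPM in wild type, against 118 (KO 1) and 92.1 CPM (KO 2), just short of the threshold (log2 difference 0.54 ± 0.19 SE, edgeR adjusted p = 0.0519). It passed under 4 alternatives, with edgeR adjusted p from 0.00878 without a filter to 0.0406 with the stricter one. Atp6v1g2, a subunit form of neurons, fell 3.05-fold from a mean of 4.42 CPM, and its call was lost when any of the 4 libraries was left out (edgeR adjusted p = 0.102 to 0.178), with DESeq2 (adjusted p = 0.129) and without a filter on low counts (edgeR adjusted p = 0.0917).

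Of 10 sorting genes 3 rose and 2 fell (30% and 20%), near the shares of all genes tested (22% and 20.2%). The mannose phosphate receptor Igf2r rose 2.52-fold, from 120 and 125 CPM to 260.0 and 360 CPM, and Sumf1, which activates all sulfatases by modifying their catalytic cysteine, rose 1.90-fold. The Golgi adaptors Gga2 and Gga3 fell 2.84-fold and 1.73-fold, and the Gga3 call was lost when any library but WT 1 was left out (edgeR adjusted p = 0.334, 0.123 and 0.145 without WT 2, KO 1 and KO 2) and with DESeq2 (adjusted p = 0.0612). Of 3 tested cystatins, which inhibit cysteine cathepsins, Cstb rose 3.21-fold and Cst7, an inhibitor made by cytotoxic lymphocytes, fell 25.6-fold, while Cst3 overlapped between the groups (edgeR adjusted p = 0.48). All 10 T and NK cell markers fell in the same libraries as Ctsw and Cst7, and their part in those falls was not tested. Among 17 autophagy genes 9 rose and 0 fell, with the phosphoinositide-binding protein Wipi1 up 3.51-fold and the cargo receptor Sqstm1 2.69-fold.

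**Figure D4:**
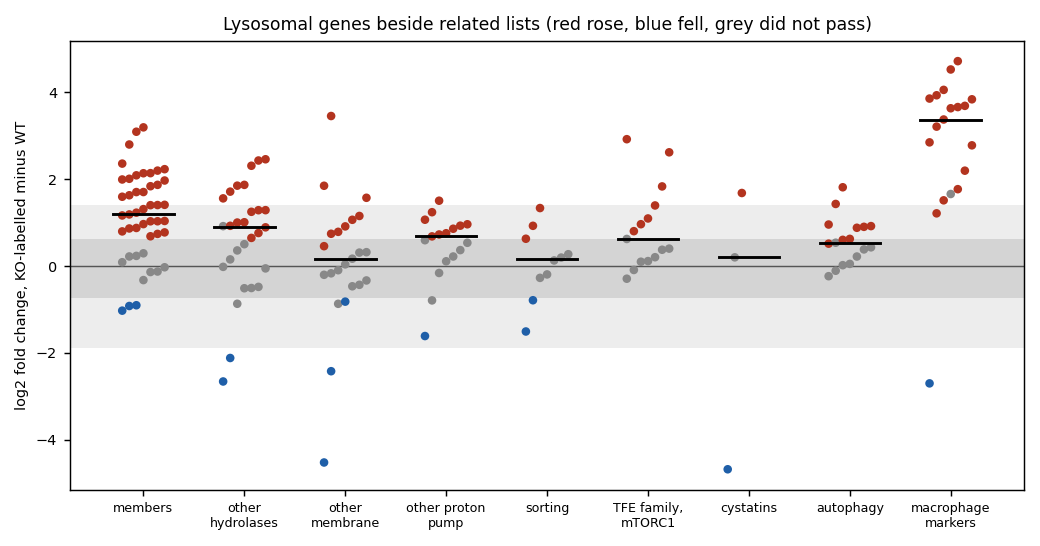
Log2 fold changes of the 46 lysosomal members, of 7 lists of other lysosomal pathway genes and of macrophage markers; black bars are list medians, and the grey bands hold the middle 50% and 80% of all genes tested. The members' median is 1.21 and that of the macrophage markers 3.37, against -0.01 for all genes.

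Macrophage markers moved with the lysosomal genes. Of 19 macrophage markers, none of which is a member, 17 rose, 1 fell (Marco) and 1 did not pass (Cd163), with a median log2 change of 3.37, and none was at 0 in any library. They summed to 594 and 536 CPM in WT 1 and WT 2 and to 5694 and 4035 CPM in KO 1 and KO 2. The 46 members summed to 4742 and 4216 CPM in wild type and to 16073 and 13323 CPM in KO 1 and KO 2. The members' sum was thus 7.98 and 7.86 times the macrophage sum in wild type and 2.82 and 3.30 times in the libraries labelled knockout. These sums are not scaled for gene length, so the multiples serve to compare libraries and not the amounts of the lists. Marco, which fell, made up 133 and 94.4 CPM of the macrophage sums in wild type and 24.8 and 10.5 CPM in KO 1 and KO 2. The fibroblast markers summed to 3218 and 2892 CPM and to 15312 and 9797 CPM, and the duct markers to 1932 and 2443 CPM and to 14706 and 14388 CPM. Of the duct sums, Spp1 made up 187 and 501 CPM in wild type and 4332 and 4555 CPM in KO 1 and KO 2. Krt8 made up 594 and 694 CPM and 4111 and 3769 CPM. Which cells gave the Spp1 RNA cannot be told from bulk samples. The part of each cell type in the rise of the lysosomal genes was not tested.

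**Figure D5:**
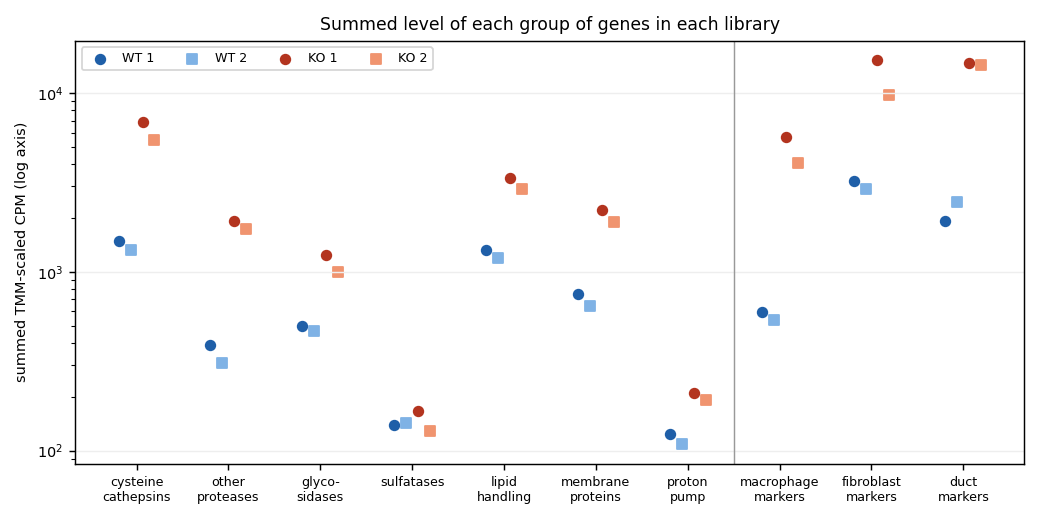
Summed TMM-scaled CPM of each role group of lysosomal genes (left of the line) and of macrophage, fibroblast and duct markers (right of it) in each library, on a log axis. Each role group shown except the sulfatases is higher in both libraries labelled knockout, and so are the macrophage, fibroblast and duct sums.

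Markers of osteoclasts, a cell type for which Ctsk, Tcirg1 and Atp6v0d2 are best known, were mostly low or did not pass. Of 7 listed, 4 were tested and 1 rose, the fusion protein Dcstamp, at 0.550 and 0.225 CPM in wild type (2 and 1 counts) and 6.44 and 5.99 CPM in KO 1 and KO 2. Ocstamp had 2, 0, 16 and 11 counts in WT 1, WT 2, KO 1 and KO 2 and was not tested. Calcr had 0 counts in every library, Oscar had 0 counts in wild type and 2 and 1 in KO 1 and KO 2, and Acp5, Nfatc1 and Tnfrsf11a were tested without passing (edgeR adjusted p = 0.229, 0.302 and 0.628).

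Levels can be compared between genes only per length, here as CPM per kilobase of merged GENCODE M21 exons. In wild type the most abundant transcripts were Psap (283 per kb) and Ctss (265 per kb), whose libraries overlapped, at 299 and 267 for Psap and 274 and 256 for Ctss. They were followed by Lamp1 (112 per kb) and Ctsz (91.0 per kb). In the libraries labelled knockout Ctss led at 1841 per kb, ahead of Psap (579), Lgmn (389), Lamp1 (295) and Ctsb (275), the last 2 with overlapping libraries. Lgmn moved from rank 8 to rank 3 and Ctsk from rank 32 to rank 17, whereas Ctso moved from 33 to 42. Tfeb had a mean of 5.03 per kb in wild type and 2.66 per kb in the libraries labelled knockout, the lowest mean of the 46 there, but in KO 2 it stood above Atp6v0d2, Sgsh and Ctso.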

How the data were processed

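Each deposited table lists raw counts for 1 library. Per the submitters' processing notes, mapping was to mm10, with TopHat and edgeR among the tools and no version given. How reads were counted (program, gene models, strand, shared reads) was not given in the sources used here. Per the labels' protocols, libraries came from a kit that keeps strand. Nothing states whether the pair labelled knockout came from separate mice, so its spread may be technical.

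Genes were kept by filterByExpr, counts were scaled with TMM, and genotype was tested in edgeR 4.0.16 (R 4.3.3) by robust glmQLFit and glmQLFTest on all 4 libraries, leaving 2 residual degrees of freedom. Adjustment was by Benjamini-Hochberg over 13990 genes. The SE is the log2 change divided by the square root of the F statistic. The steps were tested on simulated counts. Counts differed within each pair by more than sampling noise (chi-square per degree of freedom 20.96 for wild type and 21.61 for knockout-labelled). The totals were 3566387 (WT 1), 4735183 (WT 2), 5082636 (KO 1) and 5925601 (KO 2), where 3 counts equal 0.824, 0.674, 0.604 and 0.486 CPM. Coordinates count from 1 and equal GENCODE M21 for 44 of 46 members (not Ctsf and Npc1). Exons of 8 members overlap those of another tested gene, 1 of them (Glb1) on the same strand.

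Every member is named. Library values are given for the 3 largest rises, all falls, the top rise of each role group and all members that did not pass. Of each other pathway list up to 2 rises and 2 falls are named, besides Atp6v0d1, Mitf, Tfe3 and Tfec, and 1 gene that the rule takes is not reported here. The X-linked values and Card14 were added after their values were seen. The members and lists were chosen with earlier results of these data known. Promoters came from RefSeq (GRCm38.p6). A planned comparison of protein sequences was not made. Alternatives were RLE and upper quartile scaling, DESeq2 1.42.0, other filters, scaling without acinar genes, a replicate block and leaving out each library.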

Additional observations from a re-analysis of the deposited data

How the results depend on the processing

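Of the 35 members that rose, 26 passed under all 11 alternatives, and 9 lost the call when a library was left out (Ctsf, Glb1, Naglu, Fuca1, Galns, Lipa, Psap, Npc2 and Atp6v1h), 2 of them (Fuca1 and Lipa) also with upper quartile scaling (edgeR adjusted p = 0.0654 and 0.08). None of the 8 members that did not pass did so under any of these alternatives, and no called direction reversed. Leaving out 1 library in turn, with the lone sample of its group assumed to vary like the other group, gave 28 to 35 members higher and 0 to 2 lower, a members' median of 1.07 to 1.40, 36 to 51 other pathway genes higher and 5 to 9 lower (5 without WT 2 and without KO 2), and 4206 to 4608 genes changed overall (2265 to 2449 higher, 1867 to 2276 lower, the 1867 without KO 2). The 0 lower members came without KO 2, where Ctso, Sgsh and Tfeb had log2 changes of -0.68, -0.70 and -0.90.

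Upper quartile scaling moved the median of all genes to -0.20 and that of the members to 1.01, with 33 members higher and 3 lower. Over all genes it gave 2339 higher and 3594 lower, against 3077 and 2832 with TMM. Without a filter the median of all genes was -0.11. DESeq2 gave 35 members higher and 2 lower. Replicate numbers are shared between groups, but same-numbered libraries did not deviate together (correlation across genes 0.048). With the replicate number as a block 35 members were higher and 3 lower, as without it, with a median of 1.21, and 6656 genes changed overall; among the other pathway genes 58 were higher and 13 lower. Members near 20 CPM, such as Arsa and Sgsh, rest on about 67 to 136 counts a library. Their SE of about 0.26 holds the spread between the 2 libraries of a group besides counting error, and it leaves small changes undetected.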

Other observations

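Most lysosomal genes were higher in KO 1 than in KO 2. Of the 46 members, 38 (82.6%) were higher in KO 1, against 49.3% of all genes tested, and 8 in KO 2 (Ctsk, Ctsl, Lgmn, Manba, Neu1, Arsb, Mcoln1 and Tfeb). Of the macrophage markers 18 of 19 were higher in KO 1, of the fibroblast markers 8 of 9, and of the duct markers 4 of 10. The wild-type pair was also uneven, with members' sums of 4742 CPM in WT 1 and 4216 CPM in WT 2. There the macrophage sums were 594 and 536 CPM, the fibroblast sums 3218 and 2892 CPM and the duct sums 1932 and 2443 CPM. Ctsk and Ctss lie 17423 bases apart on chromosome 3 and on the same strand; in KO 1 and KO 2 Ctsk was at 67.2 and 116 CPM and Ctss at 3058 and 1943 CPM, so these neighbours rose together between the groups and ran in opposite order within the knockout-labelled pair. Each of these orders describes a pair of libraries, with no test.

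Models whose names mark them as copies or relatives of members had between 0 and 113 counts in a library, the highest being Manbal. The pseudogene Cd63-ps had 0, 1, 6 and 16 counts in WT 1, WT 2, KO 1 and KO 2, and the Glb1 relatives Glb1l and Glb1l2 had between 1 and 46 counts in a library.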
